A study of Plutella xylostella with 12 samples.

Results

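The comparison described here sets diamondback moth larvae collected 24 h after exposure to the high dose of chlorantraniliprole against larvae collected 6 h after the same dose. It rests on 6 of the 12 libraries of the series, 3 labelled as high dose at 24 h and 3 labelled as high dose at 6 h, chosen by those labels. These 6 libraries listed 98 of the 105 microRNA (miRNA) names found in the series. The 68 names with at least 10 counts in 3 or more of the 6 libraries were tested, 30 fell below that level, and 7 were listed at the other dose only.

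The animals were whole larvae of *Plutella xylostella*, in the third larval instar, of the susceptible Waite strain. Both groups had been given 0.1 ppm of chlorantraniliprole, a diamide insecticide that opens the ryanodine receptor of muscle, and both were made up of larvae that had survived it. Time after exposure is the only labelled difference between them, and the number of larvae behind a library is not given. Larvae without insecticide were not analysed here, so a change over time after the dose and a change with larval age cannot be told apart.

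miRNAs are short RNAs that are cut from hairpin precursors and guide Argonaute proteins to messenger RNAs, which are then repressed. A hairpin can give a product from its 5p arm, its 3p arm or both. In insects, pulses of the moulting hormone ecdysone drive the larval moults and metamorphosis, and several miRNAs act in that hormone's pathway or are themselves switched on by it. In RNA from a whole body, less of a miRNA per cell and fewer cells that make it cannot be told apart.

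The 24 h libraries were deeper than the 6 h libraries. Their totals were 28682, 34545 and 40388 counts at 24 h, against 19692, 25815 and 25614 counts at 6 h. They listed 79, 85 and 86 names at 24 h, against 73, 74 and 72 names at 6 h. The groups did not overlap in either measure, and the exact two-sided permutation p was 0.1 for each, the smallest that 3 against 3 libraries can give (adjusted p = 0.167 over 5 library measures). No row of the files held fewer than 5 counts, so a shallower library loses more of its rarest rows, and a name that a library does not list may be present below that level. The larger totals at 24 h therefore stand beside each value for a rare miRNA below. Over the 52 names with at least 10 counts in each library, libraries of 1 time lay closer together at 24 h (root mean square difference of 0.289 to 0.368 on the log2 scale) than at 6 h (0.349 to 0.512). Between the times the distance was 0.363 to 0.619, and each of the 6 libraries lay on average nearer to its own time. The margin was smallest for 6 h replicate 3, with mean distances of 0.408 to its own time and 0.431 to the other. That library lay nearer to 24 h replicate 1 (0.363) than to 6 h replicate 1 (0.467).

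The 10 most abundant miRNAs together held 76.9% of the counts on average. In 8 of them the log2 fold change of 24 h over 6 h was negative, while over all 68 tested names it was above 0 for 33. Of the 10, 1, pxy-miR-279b-3p, passed the test. The 10 commonest names of each library held 75.9% ± 1.16 of its counts at 24 h and 78.1% ± 1.08 at 6 h (SD, n = 3 each, exact two-sided permutation p = 0.2). The commonest was pxy-miR-10-5p, a product of the insect Hox complex, with normalised levels of 198700, 178500 and 202500 CPM at 24 h, against 161700, 214000 and 199700 CPM at 6 h. Its log2 fold change of 24 h over 6 h was 0.01 ± 0.14 (SE), with a 95% interval of -0.30 to 0.32. CPM stands for a count scaled to a common library size, here by library total and trimmed mean of M-values (TMM) factors, which assume that most miRNAs do not change. The lowest of the 10 was pxy-miR-279b-3p (-0.54), described below, and the other 8 had log2 fold changes between -0.49 and 0.09. They were negative for pxy-mir-31-5p (-0.22), pxy-miR-281-5p (-0.27), pxy-mir-184-3p (-0.23), pxy-miR-274-5p (-0.09), pxy-miR-263a-5p (-0.49), pxy-miR-9b-5p (-0.34) and pxy-miR-9a-5p (-0.17), and positive for pxy-mir-276-3p (0.09). With library totals in place of TMM factors all 8 values lay higher, and that of pxy-miR-274-5p turned positive (0.05). None of these 8 passed, and their intervals reached at most a log2 of -0.88, the lower bound for pxy-miR-263a-5p. The 24 h libraries lay wholly below the 6 h libraries for pxy-miR-279b-3p and pxy-miR-263a-5p. The second of these was called in 3 of 18 alternative fits, DESeq2 among them.

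At 24 h, 2 miRNAs rose and 2 fell. The developmental timing miRNA pxy-let-7-5p and the rare pxy-mir-316-5p rose, and pxy-mir-278-5p and the abundant pxy-miR-279b-3p fell. The folds lay between 1.46 and 2.24. The 4 calls are 5.88% of the 68 tested names, with 2.94% higher and 2.94% lower (edgeR's quasi-likelihood test, Benjamini-Hochberg adjusted p under 0.05 over the 68 names). At an unadjusted p under 0.05 there were 9 names. The biological coefficient of variation was 0.155.

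**Figure D1:**
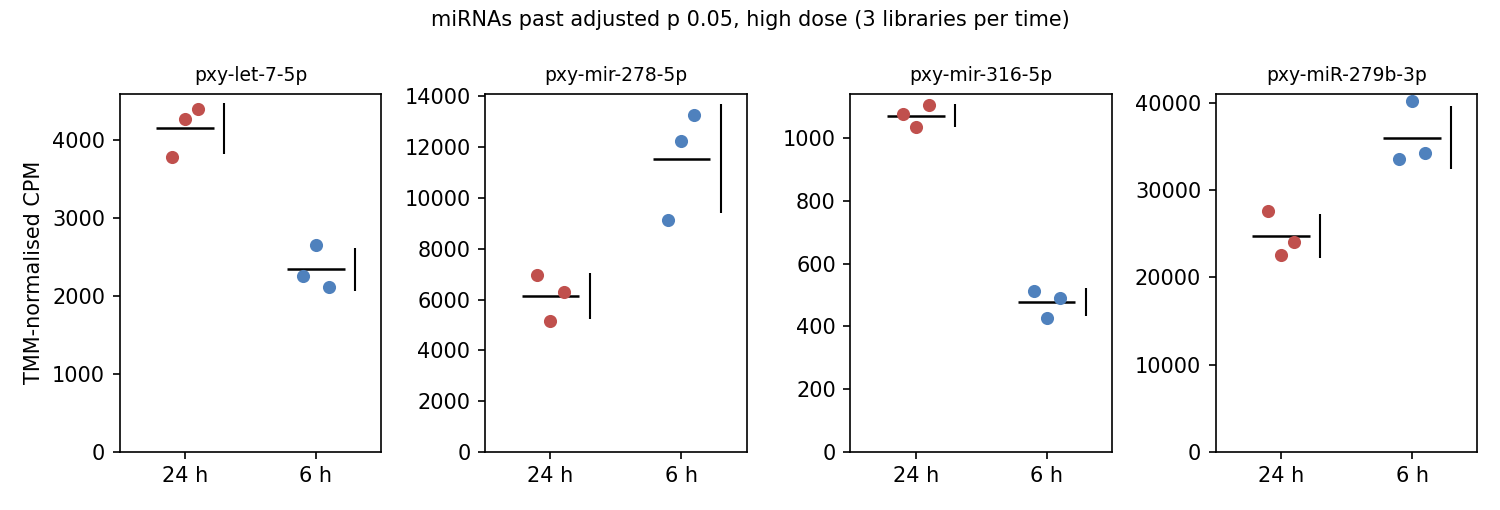
TMM-normalised CPM of the 4 miRNAs past the threshold in each high-dose library (points, 3 at 24 h and 3 at 6 h), with the group mean (horizontal line) and SD (vertical line). For pxy-let-7-5p and pxy-mir-316-5p the 24 h points all lie above the 6 h points, and for pxy-mir-278-5p and pxy-miR-279b-3p all lie below them.

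The level of pxy-let-7-5p, which in *Drosophila* is induced by ecdysone and times the passage from larva to adult, was 3783, 4271 and 4403 CPM at 24 h, against 2260, 2651 and 2122 CPM at 6 h. The groups did not overlap, and the lowest 24 h library stood well above the highest 6 h library. The mean was 4152 ± 327 CPM at 24 h and 2344 ± 274 CPM at 6 h (SD, n = 3 each), 1.77-fold higher at 24 h (log2 fold change 0.83 ± 0.15 SE, adjusted p = 0.0211, edgeR). In raw counts these were 109, 157 and 191 reads at 24 h and 44, 62 and 52 reads at 6 h. A single row of the files held 83.9% to 100% of them in each library. With a library left out, the call was lost in 4 of 6 fits, with a log2 fold change of 0.76 to 0.93 over all 6 and adjusted p of 0.0467 to 0.102, and was kept without 6 h replicate 1 or 2.

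The level of pxy-mir-278-5p was 6975, 5169 and 6293 CPM at 24 h, against 9142, 12230 and 13260 CPM at 6 h. In *Drosophila* mir-278 acts in the fat body on the response to insulin and on energy stores, a role not tied here to the 5p arm. All 24 h libraries were below all 6 h libraries, of which replicate 1 was the lowest. The mean fell to 6146 ± 912 CPM at 24 h, against 11540 ± 2144 CPM at 6 h (SD, n = 3 each), 1.89-fold lower (log2 -0.92 ± 0.17 SE, adjusted p = 0.0211, edgeR). Left out in turn, the libraries gave -1.07 to -0.80, and only the fit without 6 h replicate 1 passed (adjusted p = 0.0123, against 0.0525 to 0.102 in the other 5).

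The rarest of the 4, pxy-mir-316-5p, stood at 1076, 1034 and 1106 CPM at 24 h, against 514, 428 and 490 CPM at 6 h. These values rest on 31, 38 and 48 reads at 24 h and on 10, 10 and 12 reads at 6 h, so the 6 h libraries were at the minimum count that the test asked for. The replicates of each time lay close together, and the gap between the times was larger than the spread within either. With so few reads that spread may understate the error, and the SE of the log2 fold change was 0.52 in DESeq2. The mean was 1072 ± 36.5 CPM at 24 h and 477 ± 44.4 CPM at 6 h (SD, n = 3 each), 2.24-fold higher (log2 1.17 ± 0.25 SE, adjusted p = 0.0276, edgeR). It did not pass in DESeq2 (adjusted p = 0.245), in limma-voom with sample weights (0.198) or with any 1 library left out (0.0647 to 0.152). With the floor on rows made equal in depth over the libraries, a setting added after the data were seen, its log2 fold change was 1.09 (adjusted p = 0.0625).

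The level of pxy-miR-279b-3p was 27590, 22580 and 24090 CPM at 24 h, against 33590, 40190 and 34320 CPM at 6 h. In *Drosophila*, miR-279 restricts the formation of carbon dioxide sensing neurons and tunes cytokine receptor signalling in the ovary. Each 24 h library was below each 6 h library, by a smaller factor than for the other 3. The mean fell to 24750 ± 2570 CPM at 24 h, against 36030 ± 3616 CPM at 6 h (SD, n = 3 each), 1.46-fold lower (log2 -0.54 ± 0.13 SE, adjusted p = 0.0430, edgeR). Its call depended on scaling and on other settings. The log2 fold change was -0.40 with library totals (adjusted p = 0.0778) and with upper quartile factors (adjusted p = 0.149). With TMM factors kept, the call was also lost in limma-voom (0.0508) and with the replicate number as a block (0.0637). It was lost as well with the highest single row of each name (0.199) and with the equal floor (0.0562). No fit with 1 library left out passed (0.0594 to 0.201).

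Counts of calls turned on single libraries. Without any 1 of the 24 h libraries, or without 6 h replicate 3, edgeR made 0 calls, with 6 to 14 names at an unadjusted p under 0.05. Without 6 h replicate 2 the only call was pxy-let-7-5p, and without 6 h replicate 1 the calls were pxy-let-7-5p and pxy-mir-278-5p. No other tool was run on the reduced sets. In place of 2 higher and 2 lower names, upper quartile factors called 3 higher and 1 lower, library totals 2 higher and 1 lower, and DESeq2 1 higher and 3 lower. Upper quartile factors and library totals moved the median log2 fold change of the tested names from -0.02 to 0.12, so all directions are relative to the scaling. The signs of the 4 called miRNAs were the same in all 18 alternative fits. In DESeq2, pxy-let-7-5p, pxy-mir-278-5p and pxy-miR-279b-3p were called, with pxy-miR-263a-5p in place of pxy-mir-316-5p.

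**Figure D2:**
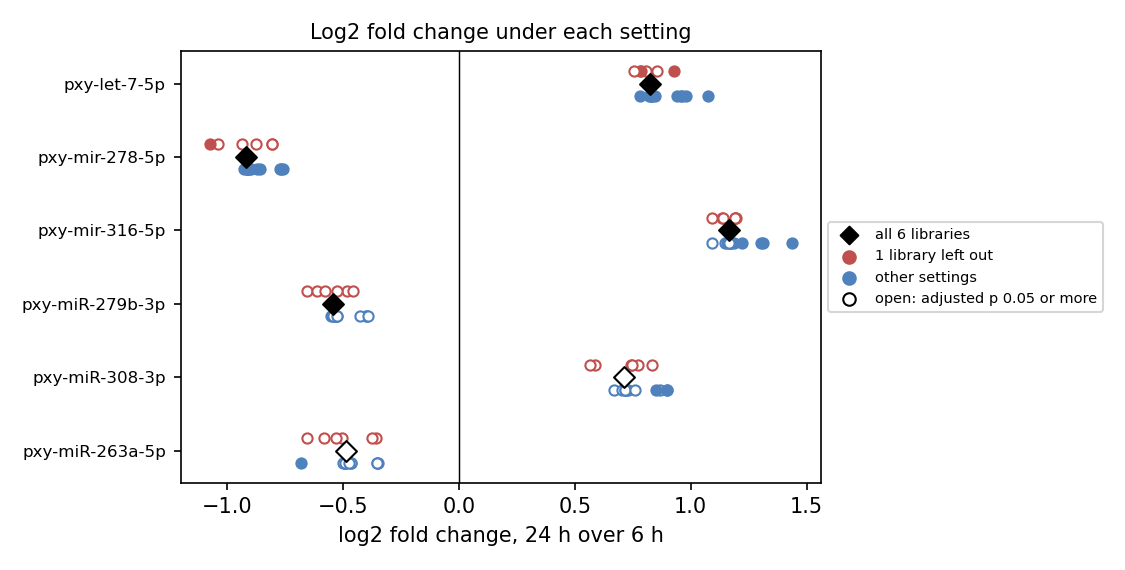
Log2 fold change of 24 h over 6 h for the 4 called miRNAs, pxy-miR-308-3p and pxy-miR-263a-5p with all 6 libraries (diamonds), with 1 library left out (upper points) and under the other settings (lower points). Filled marks are past an adjusted p of 0.05: the signs hold throughout, whereas most fits with a library left out have open marks.

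Next in order of p among the higher names came pxy-miR-308-3p, pxy-miR-277-3p and pxy-mir-1175-3p, none of which passed. The level of pxy-miR-308-3p was 1874, 2067 and 2489 CPM at 24 h, against 1027, 1368 and 1510 CPM at 6 h, without overlap. Its log2 fold change was 0.71 ± 0.21 SE (adjusted p = 0.107, edgeR), and it passed in 4 of 18 alternative fits. These used upper quartile factors (0.85), at least 10 counts asked of each library (0.73) and the highest single row of each name (0.90). The last was the equal floor described above combined with library totals (0.90). It did not pass in DESeq2 (adjusted p = 0.403), in limma-voom with sample weights (0.198) or with any 1 library left out (0.104 to 0.446). The level of pxy-miR-277-3p, which in *Drosophila* controls the breakdown of branched-chain amino acids, was 3019, 3074 and 2812 CPM at 24 h, against 2465, 2309 and 1673 CPM at 6 h. Its log2 fold change was 0.47 ± 0.18 SE (adjusted p = 0.235). The largest log2 fold change of the tested names, 1.55 ± 0.59 SE, belonged to pxy-mir-1175-3p (adjusted p = 0.235). It had 28, 32 and 54 counts at 24 h and 9 and 15 counts in 6 h replicates 2 and 3, and 6 h replicate 1 did not list it, so its fold is not well set. With its highest row alone the value was 0.41, and it was 0.91 with the equal floor.

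Next among the lower names came pxy-miR-263a-5p, pxy-miR-9b-5p and pxy-mir-970-3p. In *Drosophila*, miR-263a protects sensory organ cells from death. The level of pxy-miR-263a-5p was 64440, 56340 and 44700 CPM at 24 h, against 91730, 73190 and 67180 CPM at 6 h. The groups did not overlap, but the log2 fold change of -0.49 ± 0.17 SE did not pass (adjusted p = 0.232, edgeR). It passed in 3 of 18 alternative fits: in DESeq2 (adjusted p = 0.0381), with all 12 libraries sharing the estimate of the spread (0.0379) and with its highest row alone (-0.68, adjusted p = 0.0349). That row held 45.2% to 48.9% of its counts at 24 h and 52.4% to 64.1% at 6 h. The value of pxy-miR-263a-5p was -0.35 with library totals (adjusted p = 0.272, edgeR) and with upper quartile factors (0.368). No fit with 1 library left out passed (0.112 to 0.544). For pxy-miR-9b-5p the levels were 25990, 32830 and 24460 CPM at 24 h, against 38060, 37450 and 30080 CPM at 6 h, and the groups overlapped (log2 -0.34 ± 0.15 SE, adjusted p = 0.324). For pxy-mir-970-3p the levels were 1596, 1877 and 1590 CPM at 24 h, against 2311, 2608 and 1714 CPM at 6 h, again with overlap, and the log2 fold change was -0.38 ± 0.20 SE (adjusted p = 0.407).

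**Figure D3:**
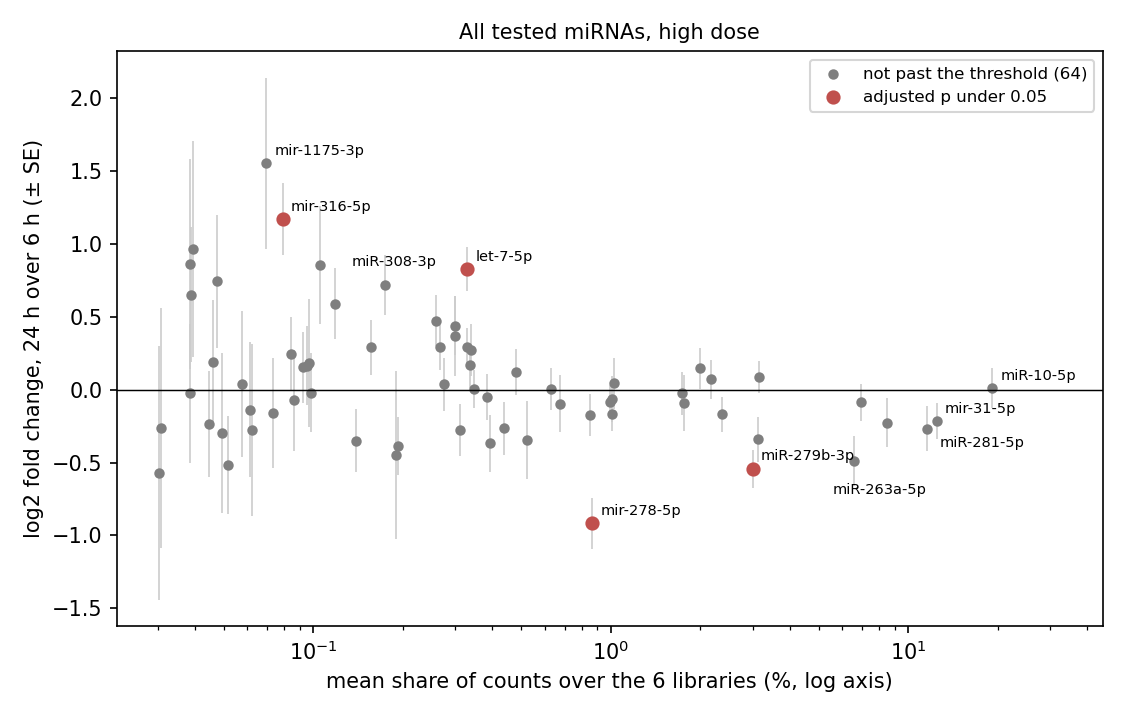
Log2 fold change of 24 h over 6 h (± SE) against the mean share of counts (log axis) for the 68 tested miRNAs at the high dose. The SE widens towards rare names, and the 4 called miRNAs (larger points) lie at shares from 0.0789% to 3.00%.

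Among all tested names the 24 h libraries lay wholly above the 6 h libraries for 9 (13.2%) and wholly below them for 5 (7.35%). The log2 fold change was above 0 for 33 of the 68, with a median of -0.02 and a median SE of 0.195. The shares called (5.88%) and the median (-0.02) are the values beside which each group of miRNAs below is read. The groups were chosen with earlier results of these data known.

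Of the let-7 complex, a cluster that ecdysone induces in *Drosophila*, 1 of 2 tested members rose. While pxy-let-7-5p rose, pxy-mir-100-3p from the same complex had levels of 18220, 13850 and 19730 CPM at 24 h, against 18540, 16800 and 17430 CPM at 6 h (log2 -0.03 ± 0.15 SE). Its 95% interval was -0.37 to 0.31. The other arm, pxy-let-7-3p, was not tested, with no count, 10 and 15 counts at 24 h and a single listing of 9 counts at 6 h.

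Of 9 tested miRNAs of families tied in insects to ecdysone, insulin or growth, 1 fell and 8 did not pass, with a median of -0.07. The member that fell was pxy-mir-278-5p. In the silkworm, miR-281 acts on an isoform of the ecdysone receptor in Malpighian tubules, and here pxy-miR-281-5p had a log2 fold change of -0.27 ± 0.15 SE. The miR-14 family, which in *Drosophila* limits fat storage and acts on the ecdysone receptor, had 4 tested arms and no call. They were at 0.15 in pxy-mir-14a-3p, -0.07 in pxy-mir-14b-3p, -0.26 in pxy-mir-14a-5p and -0.35 in pxy-miR-14b-5p. The value of pxy-mir-14b-3p changed sign with library totals (0.09) and with upper quartile factors (0.07), and that of the rare pxy-mir-14a-5p turned to 0.19 without 24 h replicate 1. The 8 tested miRNAs of families linked to fat body and metabolism had 1 lower, again pxy-mir-278-5p, and 7 not passing, with a median of 0.03.

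Among 4 tested members of the miR-279 family 1 fell and 3 did not pass, and their median was -0.22. Beside pxy-miR-279b-3p, the value was -0.16 ± 0.12 SE for pxy-miR-279a-3p, whose 24 h libraries also lay below all 6 h libraries, -0.28 for pxy-mir-279d-3p and 0.003 for pxy-mir-279c-3p. Of 12 tested miRNAs from families reported in insecticide responses of insects, 2 fell and 10 did not pass, with a median of -0.22. The 2 were pxy-mir-278-5p and pxy-miR-279b-3p.

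The families that share the seed of miR-2, which in *Drosophila* repress cell death genes, were listed with their cluster partner miR-71. None of the 7 tested members passed, and their values ran from -0.52 to 0.96 with a median of -0.09. The highest, 0.96 ± 0.74 SE, was that of the rare pxy-miR-2b-3p, which reached the testing level through the 24 h libraries alone. With the equal floor its value was 0.09. The most abundant members were pxy-mir-11-3p (-0.09), pxy-miR-2a-3p (-0.18) and pxy-mir-71-3p (-0.27), of which the first was 0.06 with library totals and 0.04 with upper quartile factors. None of the 4 tested members of the miR-9 group passed, with a median of -0.13. They included pxy-miR-9a-5p (-0.17), which in *Drosophila* holds down the number of sensory organ precursors, and pxy-miR-306-5p (-0.08), which was 0.06 with either of those scalings.

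The pair from the cluster of miR-12 and miR-283 had the highest group median, 0.51, without a call. The level of pxy-mir-12-5p was 3436, 3292 and 3596 CPM at 24 h, against 1746, 3078 and 2735 CPM at 6 h (log2 0.44 ± 0.20 SE, adjusted p = 0.324, edgeR). The level of pxy-miR-283-5p was 1458, 1442 and 1360 CPM at 24 h, against 616, 1154 and 1020 CPM at 6 h (log2 0.59 ± 0.24 SE, adjusted p = 0.308). For both, each 24 h library was above each 6 h library, and 6 h replicate 1, the shallowest library, was the lowest. Without that library the values were 0.23 and 0.36.

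None of the other groups held a call. Of the pair miR-750 and miR-1175 all 4 tested arms did not pass, at 0.07 for pxy-miR-750-3p, -0.35 for pxy-miR-750-5p, 0.27 for pxy-mir-1175-5p and 1.55 for pxy-mir-1175-3p (median 0.17). The gut and tubule families, the arms of miR-281 and miR-1175, had a median of 0.28 over 4 tested names. In the group made up of miR-34, miR-277 and miR-317, the member pxy-mir-317-3p varied most between replicates, with 1388, 2421 and 922 CPM at 24 h, against 4365, 812 and 1428 CPM at 6 h. Its log2 fold change of -0.45 ± 0.58 SE turned to 0.44 without 6 h replicate 1, which held the highest value. The group's median over 2 tested names was 0.01. The Hox complex gave 0.01, 0.17 and 0.16 for pxy-miR-10-5p, pxy-miR-10-3p and pxy-mir-993-3p (median 0.16). The first became -0.12 without 6 h replicate 1.

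The muscle miRNA pxy-mir-1-3p had 764, 680 and 1637 CPM at 24 h, against 462, 1240 and 1020 CPM at 6 h. The groups overlapped, and the log2 fold change of 0.18 ± 0.44 SE became -0.36 without 24 h replicate 3. The 95% interval, -0.81 to 1.18, leaves room for a change of either sign in a miRNA of the tissue on which the insecticide acts. The nervous tissue group had 3 tested names, pxy-mir-190-5p (0.24), pxy-mir-927-3p (-0.14) and pxy-mir-927-5p (0.19), with a median of 0.19. The sensory organ pair had 1 tested member, pxy-miR-263a-5p. Of 4 tested miRNAs described in Lepidoptera, with a median of -0.12, the most abundant were pxy-miR-2755-3p (0.04), pxy-mir-2763-3p (-0.28) and pxy-mir-3338-3p (-0.30). Of 12 tested names whose numbers fall in a range known from this moth, with a median of -0.01, the most abundant were pxy-miR-8521a-3p (-0.05), pxy-miR-8536b-3p (0.003) and pxy-miR-8495-5p (0.37).

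The arms of a hairpin come from the same transcript, and their ratio within a library does not depend on the scaling. The ratio can still depend on depth, since an arm spread over rows near the floor loses more of them in a shallower library. Of 12 hairpins with both arms tested, the arms had log2 fold changes of the same sign in 5 and of opposite sign in 7. Unlike the ratio, this count depends on the scaling. With library totals the arms of miR-14b and miR-274 became opposite in sign, and those of miR-8495 became the same. For 9 of the 12 hairpins both arms were listed in each library, and in 3 the ratio at 24 h lay wholly below that at 6 h, while in 0 it lay wholly above. The ratio of pxy-mir-278-5p to pxy-mir-278-3p was 1.41, 1.06 and 1.21 at 24 h, against 2.00, 3.29 and 2.41 at 6 h. It averaged 1.23 ± 0.17 at 24 h, against 2.57 ± 0.66 at 6 h (SD, n = 3 each). Alone, pxy-mir-278-3p had levels of 4962, 4869 and 5186 CPM at 24 h, against 4571, 3719 and 5510 CPM at 6 h, which overlapped (log2 0.12 ± 0.16 SE, adjusted p = 0.787, edgeR).

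The 5p to 3p ratio of miR-281 was 29.25, 29.99 and 28.78 at 24 h, against 45.7, 52.3 and 32.7 at 6 h. Here neither arm passed, and the less abundant pxy-miR-281-3p had 3574, 3754 and 3504 CPM at 24 h, against 2979, 2779 and 3102 CPM at 6 h (log2 0.29 ± 0.13 SE, adjusted p = 0.324, edgeR). Its counts were spread over 7, 9 and 8 rows at 24 h and over 5, 6 and 6 rows at 6 h. With the equal floor its log2 fold change was 0.23, so part of the lower ratio at 24 h may come from depth, which was not tested. The ratio of miR-9b was 74.9, 75.4 and 40.8 at 24 h, against 92.6, 146 and 123 at 6 h, but pxy-miR-9b-3p had 6 to 8 counts in the 6 h libraries, near the floor of the files. That arm reached the testing level through the 24 h libraries alone, which favours a lower ratio at 24 h. These ratios were singled out after their values were seen and were not tested.

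**Figure D4:**
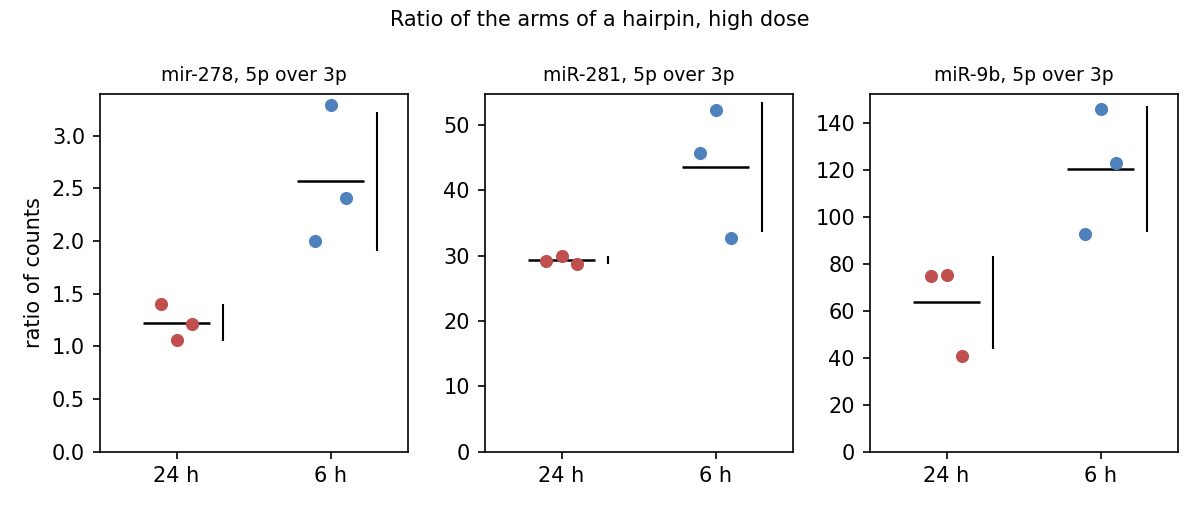
Ratio of 5p to 3p counts of mir-278, miR-281 and miR-9b in each high-dose library (points, 3 at 24 h and 3 at 6 h), with the group mean (horizontal line) and SD (vertical line). In each panel the 24 h points lie below the 6 h points. The 3p arm of miR-9b reached the testing level through the 24 h libraries alone.

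The 30 names below the testing level held at most 21 counts in any of the 6 libraries. Of these, 17 were listed at 24 h alone, 2 at 6 h alone and 11 at both times, in libraries that were deeper at 24 h. Only 2 of the 17 were listed in each 24 h library. They were pxy-mir-92b-5p, with 5, 5 and 21 counts, and pxy-mir-2796-3p, with 5, 9 and 14 counts. The Hox complex miRNA pxy-mir-iab-4-5p had 14, 13 and 8 counts at 24 h, against 5 counts in 1 of the 6 h libraries. No fold is given for these names. Among the tested names, 16 had under 10 counts in at least 1 library at 6 h, and 4 at 24 h. The testing level was reached through the 24 h libraries alone by 2 names, pxy-miR-9b-3p and pxy-miR-2b-3p.

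Larvae given the low dose (0.01 ppm) allow the time effect to be compared between doses, in a fit of all 12 libraries with 76 tested names. Low-dose totals ran from 10714 to 41214 counts, and the shallowest library of the fit was a low-dose library at 6 h. The difference of the time effects passed for 6 names (7.89%). At the high dose, pxy-mir-278-5p had a log2 fold change of -0.94 ± 0.16 SE, against 0.88 ± 0.16 at the low dose, and the 2 effects were -1.82 ± 0.23 apart (edgeR test of the interaction, adjusted p = 3.21e-06). For pxy-miR-279b-3p it was -0.57 ± 0.11 at the high dose, against 0.25 ± 0.11 at the low dose (difference -0.82, adjusted p = 0.00141). The other 2 called miRNAs did not pass for this difference. For pxy-let-7-5p the time effect was 0.81 ± 0.19 at the high and 0.32 ± 0.21 at the low dose (difference 0.49 ± 0.29, adjusted p = 0.365). For pxy-mir-316-5p it was 1.14 ± 0.37 and 0.91 ± 0.36 (difference 0.23 ± 0.52, adjusted p = 0.913).

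**Figure D5:**
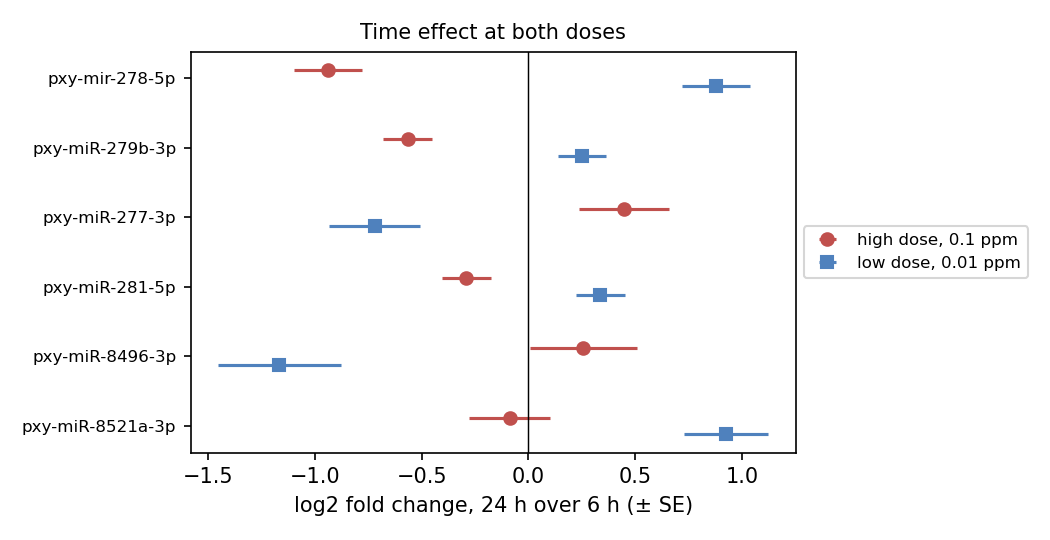
Log2 fold change of 24 h over 6 h (± SE) at the high dose (circles) and the low dose (squares) for the 6 miRNAs whose time effect differed between doses. For pxy-mir-278-5p the estimates are -0.94 at the high dose and 0.88 at the low dose.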

How the data were processed

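The deposited values are read counts per row, with a miRNA name on each row and 1 file per library, per the file headers. Per the labels' protocols, total RNA of whole larvae was made into TruSeq small RNA libraries and read on an Illumina HiSeq. The aligner, filters and miRNA set were not given in the sources used here. What sets the rows of 1 name apart is not stated, nor how near-identical miRNAs share reads, so closely related names are uncertain to that extent. Sequences and genomic positions were not used here. No molecular identifiers are named, so reads copied from 1 molecule cannot be told from separate molecules, and read depth does not set the counting error.

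Rows were summed per name. Names with at least 10 counts in 3 or more of the 6 libraries were tested with edgeR 4.0.16 in R 4.3.3: TMM factors, glmQLFit and glmQLFTest (4 residual degrees of freedom), with Benjamini-Hochberg adjustment at 0.05. Each SE was taken from the F statistic, as the absolute log2 fold change over its square root. The difference between doses was an interaction term over all 12 libraries. Alternatives used DESeq2 1.42.0, limma 3.58.1 (voom with sample weights), other factors, filters and rows, and each library left out. The equal floor, chosen after seeing the data, kept rows whose count, scaled to the shallowest of the 6 libraries, reached 5. The same floor was used in 1 alternative fit of the difference between doses. There it is not equal, since a low-dose library at 6 h was shallower (10714 counts). The fit was also run on simulated counts that gave all names the same spread, unlike these data, so that run is no support for the calls. Every pair of replicates differed by more than sampling noise, with 4.27 to 10.9 times the chi-square that noise alone gives, and none was merged. The labels call replicates biological but do not say that they came from separate cultures, so p-values set each difference against the spread between these samples only.

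The miRNAs named are those past the threshold, the next 3 in each direction, the 10 most abundant, the other arm of a called miRNA where tested and up to 3 of each list. Arms of miR-14 and pxy-mir-279d-3p outside that rule were added after their values were seen, to complete their families. The members and lists were chosen with earlier results of these data known.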

Additional observations from a re-analysis of the deposited data

Results flagged for a closer look

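For 6 miRNAs the change from 6 h to 24 h differed between the high and the low dose by an interaction test in edgeR over all 12 libraries. The difference, high minus low dose on the log2 scale, stood at -1.82 in pxy-mir-278-5p and at -0.82 in pxy-miR-279b-3p. In pxy-miR-277-3p it was 1.17, with time effects of 0.45 at the high and -0.72 at the low dose (adjusted p = 0.0145). It was -0.63 for pxy-miR-281-5p, with time effects of -0.29 at the high and 0.34 at the low dose, neither of which passed alone (adjusted p = 0.0145 for the difference). It was 1.43 for pxy-miR-8496-3p, with 0.26 at the high and -1.17 at the low dose, and -1.01 for pxy-miR-8521a-3p, with -0.09 at the high and 0.93 at the low dose (adjusted p = 0.0145 for each). For these last 2 the effect that passed alone was that at the low dose.

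These differences held to unequal degrees. That of pxy-mir-278-5p passed in all 18 alternative fits (-1.96 to -1.35), and that of pxy-miR-279b-3p in 17 of 18, the exception being upper quartile factors (-0.34). The difference passed in 15 of 18 for pxy-miR-277-3p, 14 for pxy-miR-281-5p and 13 each for pxy-miR-8496-3p and pxy-miR-8521a-3p. For pxy-miR-8496-3p it was 0.23 with the highest row alone. Without low-dose replicate 1 at 24 h only pxy-mir-278-5p and pxy-miR-279b-3p passed.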

How the results depend on the processing

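The signs of the 4 called miRNAs were kept in all 18 alternative fits. Apart from the fits with a library left out, pxy-let-7-5p and pxy-mir-278-5p passed in 12 of 12, pxy-mir-316-5p in 8 and pxy-miR-279b-3p in 5. These 12 fits all reuse the 6 high-dose libraries, so they are not independent of each other. In the same order, the 4 names passed in 2, 1, 0 and 0 of the 6 fits with a library left out. Beside the main 4 calls (2 higher, 2 lower), limma-voom and the equal floor on rows each gave 2 (1 higher, 1 lower). Calls were 1 higher and 3 lower with DESeq2, 2 and 1 with library totals, 3 and 1 with upper quartile factors, and 3 and 1 with the equal floor and library totals. With 1 library left out the calls numbered 0 to 2 (0 to 1 higher, 0 to 1 lower). The cause was not tested, but these fits hold fewer libraries. Same-numbered libraries deviated from their group means with correlations of -0.113, -0.283 and 0.046, and 0 of 6 correlated best with their own number. Group means of 3 libraries leave little to correlate, so this check cannot settle whether replicate numbers mark pairs. With the replicate number as a block, 2 names were called (1 higher, 1 lower).

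Small log2 fold changes of miRNAs that did not pass changed sign in several fits. With library totals the values were 0.054 for pxy-miR-274-5p, 0.116 for pxy-mir-100-3p, 0.085 for pxy-mir-14b-3p, 0.055 for pxy-mir-11-3p, 0.062 for pxy-miR-306-5p and 0.090 for pxy-miR-8521a-3p. In the same order upper quartile factors gave 0.053, 0.114, 0.069, 0.043, 0.059 and 0.089, and the equal floor with library totals gave 0.058, 0.115, 0.113, 0.076, 0.054 and 0.130, with 0.213 for pxy-mir-927-3p and 0.221 for pxy-mir-14a-5p. The highest single row gave 0.049, 0.007, 0.063, 0.018 and 0.032 for the first 5 and 0.053 for pxy-mir-927-3p. The equal floor with TMM factors gave 0.002 for pxy-miR-8521a-3p, 0.092 for pxy-mir-927-3p and 0.075 for pxy-mir-14a-5p. In limma-voom pxy-miR-8536b-3p was at -0.013 and pxy-mir-927-3p at 0.004, and without a filter pxy-mir-279c-3p was at -0.006 and pxy-miR-8536b-3p at -0.005.

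With 1 library left out, the range was -0.117 to 0.096 for pxy-miR-10-5p, -0.163 to 0.027 for pxy-miR-274-5p, -0.014 to 0.277 for pxy-mir-278-3p, -0.135 to 0.111 for pxy-mir-100-3p and -0.224 to 0.017 for pxy-mir-14b-3p. It was -0.618 to 0.187 for pxy-mir-14a-5p, -0.357 to 0.462 for pxy-mir-1-3p, -0.918 to 0.443 for pxy-mir-317-3p, -0.266 to 0.025 for pxy-mir-11-3p, -0.081 to 0.134 for pxy-mir-279c-3p, -0.007 to 0.167 for pxy-miR-750-3p and -0.582 to 0.032 for pxy-miR-750-5p. It was -0.111 to 0.167 for pxy-miR-2755-3p, -0.946 to 0.108 for pxy-mir-2763-3p, -0.630 to 0.132 for pxy-mir-3338-3p and -0.185 to 0.074 for pxy-miR-8521a-3p. It was -0.062 to 0.043 for pxy-miR-8536b-3p, -0.446 to 0.235 for pxy-mir-927-3p and -0.054 to 0.611 for pxy-mir-927-5p.

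For the difference between doses, the main 6 calls (2 higher, 4 lower) became 4 higher and 2 lower with library totals, and upper quartile factors gave 4 higher and 1 lower. With 1 of the 12 libraries left out there were 2 to 9 calls (0 to 3 higher, 2 to 6 lower), and pxy-mir-316-5p ran from -0.007 to 0.565. With the replicate block there were 8 (2 higher, 6 lower). Depth limits the rare names most. Totals of 19692 to 40388 counts in the 6 high-dose libraries, and of 10714 in the shallowest low-dose library, leave a name at 10 counts near the lowest row the files list.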
